A study of Drosophila melanogaster with 6 samples.

Results

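The body of chromosome arm 3L of Drosophila melanogaster is the left arm of the third chromosome without its outer 1 Mb on the telomeric side and its inner 1.5 Mb next to the centromere. Its members are the 10 kb windows of 3L between 1000001 and 23000000, coordinates counted from 1 as in the deposited files, that were above 0 in at least 1 library. There were 8762 such windows, 16.4% of the 53434 windows above 0 in the whole series, and 35 further windows of that range were at 0 in every library. The windows start every 2.5 kb and neighbours share reads, so 2193 of them do not overlap. The 22 Mb were taken by position alone, with no measured value used.

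The cells were Kc, an established female line grown from late-stage embryos whose genotype is labelled se/e. All cells were labelled WT and received the thymidine analogue BrdU at 50 µg/ml for 1 hour, then were fixed, stained with propidium iodide and sorted by DNA content into Early S, Mid S and Late S. Labelled DNA was recovered with an antibody to BrdU and sequenced, with 2 replicate libraries in each of the 3 fractions. Whether replicates were separate cultures is not stated in the labels, and the p-values therefore cover only the spread among these libraries, which may be technical. A sorted fraction is a pool, so more label in a window can mean that more cells copied it at that time or that the same cells took up more label, and these cannot be told apart.

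In S phase a chromosome is copied in a set order. Replication starts at origins, and groups of neighbouring origins that start together give domains of like timing. In flies, as in other animals, early domains are commonly rich in active genes and open chromatin, and late domains in silent or repressed chromatin. Where an early and a late domain meet, forks move from the early into the late side, and timing changes along the DNA. Values here are RPKM, reads scaled to window length and to the library's total, so each library sums to the same total and a window's value is its share of the label of that fraction, not an amount. No gene positions or base sequence were used here, because the gene table at hand is of another release of the genome than the files.

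The libraries held 1384200 to 2936097 reads, and the body drew 18.1% to 18.6% of them. The median window of the body held 216 and 135 reads for the Early S libraries and 233 and 166 for Mid S, while Late S had 145 and 111. Between 0 and 7 windows of the body were at 0 in a library. Where no read was counted, up to 3 reads are possible, or 0.102 RPKM at the greatest depth and 0.217 RPKM at the lowest, for counting error only. Replicates differed by more than counting error on the body, as a chi-square test over the non-overlapping windows gave 2.21 per degree of freedom for Early S, 2.22 for Mid S and 3.00 for Late S. On the log2 scale, replicate differences had an SD of 0.272, 0.239 and 0.358 in the same order of fractions.

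Label on 3L was uneven in Early S and Late S, and flatter in Mid S. The median window held 7.36 and 7.13 RPKM for the Early S libraries and 8.32 and 8.38 for Mid S, while Late S had 7.81 and 8.02. The lowest 10% of windows lay below 2.29 and 2.11 RPKM for Early S, below 4.57 and 4.79 for Mid S, and below 2.69 and 3.40 for Late S. The highest 10% lay above 16.1 and 17.1 RPKM in Early S, above 11.8 in both Mid S libraries, and above 14.97 and 13.87 in Late S. The richest window reached 34.4 and 38.4 RPKM for Early S and 20.2 and 19.4 for Mid S, while Late S had 25.3 and 23.8. At both of these limits each Early S and Late S library lay further out than either Mid S library.

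**Figure D1:**
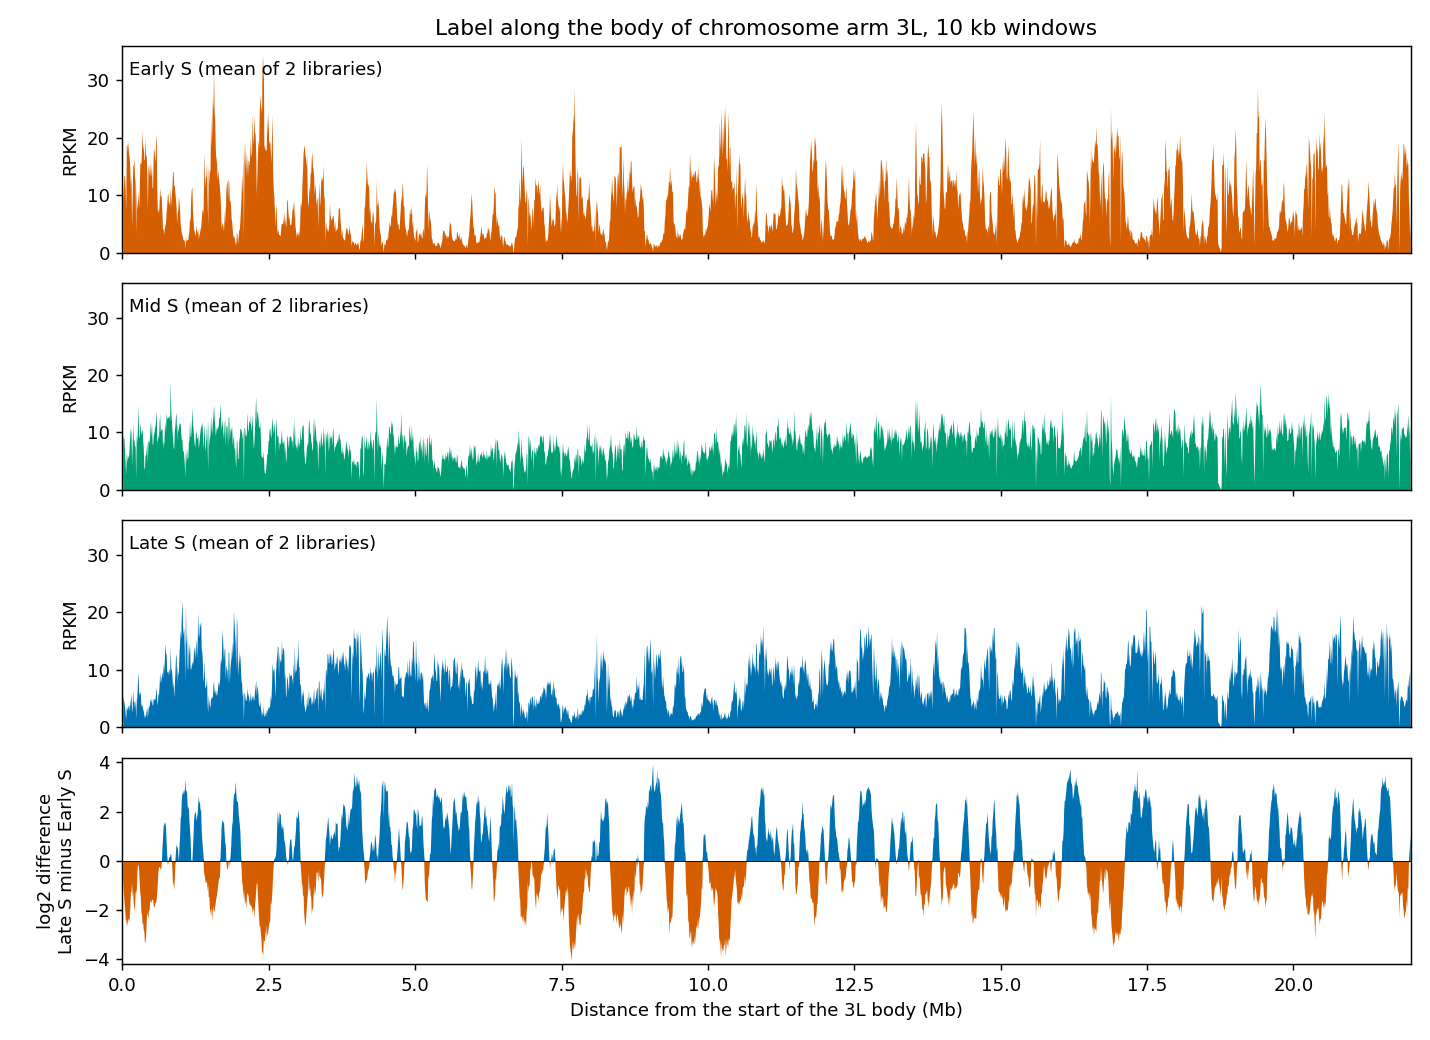
Label along the 3L body in 10 kb windows that do not overlap, as the mean RPKM of the 2 libraries of Early S, Mid S and Late S (top to bottom), and the log2 difference of Late S minus Early S (lowest panel, blue where Late S is higher, orange where Early S is higher). The x axis is the distance in Mb from the telomeric end of the 22 Mb body. Stretches of high Early S label lie where Late S label is low and the other way round, while the Mid S panel is flatter.

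Late S was compared with Early S window by window to ask which stretches of 3L are copied late and which early. Of the 8762 windows, 3972 (45.3%) were called higher in Late S and 3611 (41.2%) higher in Early S, past a Benjamini-Hochberg adjusted p of 0.05 over all windows of the genome (limma). The background over all 53434 windows tested was 44.2% higher in Late S and 37.6% higher in Early S, so the share called on 3L was near that of the genome in both directions. The order of both shares depended on the scaling. With libraries centred on their medians the shares were 43.0% higher in Late S and 43.8% higher in Early S, and the median difference over all tested windows, 0.23 on the log2 scale as first fitted, was then 0.08. No call was made for 13.5% of windows, and a difference there was not detectable at this depth and with 2 libraries a fraction.

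Differences on 3L were large compared with the replicate spread. The log2 difference of Late S minus Early S was at least 1 in size, a change of 2-fold, in 65.4% of the windows, and at least 2 in size in 27.9%. Over all tested windows these shares were 62.8% and 29.8%. The lowest 10% of windows on 3L had differences below -2.07 and the highest 10% above 2.47, around a median of 0.13. Windows under 0.5 in size made up 16.8% of the body.

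In consecutive segments of 1 Mb, 3L alternated between an excess of Late S and an excess of Early S label. Each segment is the mean of the 96 to 100 windows in it that do not overlap. Of 22 segments, 10 were called higher in Late S and 10 higher in Early S (limma, adjusted over the 137 segments of the genome), against a background of 47.4% of segments higher in Late S and 40.9% higher in Early S. The fit gave all segments of like level the same spread, with infinite prior degrees of freedom, so the segments' own replicates weigh little in these calls and the values of each library are given beside them. In none of the 22 segments did the range of the Late S libraries overlap that of the Early S libraries, as was the case in 94.2% of all 137 segments, so the count on 3L is near the background.

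The most late-labelled segment was 6000001 to 7000000. It held 3.71 and 3.55 RPKM for the Early S libraries and 5.76 and 5.72 for Mid S, while Late S had 8.81 and 7.96. Its Late S minus Early S difference was 1.21 ± 0.0724 (SE) on the log2 scale, or 2.31-fold, and 80% of its windows were called higher in Late S and 11.3% higher in Early S. It stood within a run of 4 segments, from 4000001 to 8000000, that were all higher in Late S, with differences of 0.27, 0.80, 1.21 and 0.56 from the telomeric side on. Along the same run the mean Mid S label was 7.92, 7.90, 5.74 and 5.89 RPKM, beside body means of 8.27 and 8.34 for the Mid S libraries. Low Mid S label was not limited to this run, as the segments from 8000001 and 10000001 had 6.65 and 5.46 RPKM.

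The most early-labelled segment lay directly beside that run, at 8000001 to 9000000. It held 9.20 and 9.71 RPKM for the Early S libraries and 6.69 and 6.62 for Mid S, while Late S had 3.93 and 4.34, a Late S minus Early S difference of -1.20 ± 0.0619 (SE). In it 10.3% of windows were called higher in Late S and 75.6% higher in Early S. No library of Early S overlapped one of Late S in either segment. Strong early excess was also found near the telomeric end, at 1000001 to 2000000, with 11.5 and 12.0 RPKM for Early S and 9.92 and 9.05 for Mid S, while Late S had 6.57 and 6.49 (difference -0.84 ± 0.0425, SE). The segment from 3000001 to 4000000 had the highest Early S values of the body, with 12.7 and 13.4 RPKM for Early S and 9.26 and 9.08 for Mid S, while Late S had 7.25 and 7.42. The segment between them, 2000001 to 3000000, went the other way, with 8.21 and 8.47 RPKM for Early S and 9.53 and 9.39 for Mid S, while Late S had 11.7 and 11.3.

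Further towards the centromere the segments were less extreme. From 14000001 to 18000000, 4 segments in a row were higher in Early S, with differences between -0.12 and -0.48. From 18000001 to 21000000 the differences were 0.46, 0.09 and 0.27, and the segment that ends the body, 22000001 to 23000000, had 7.20 and 7.15 RPKM for Early S and 8.92 and 8.69 for Mid S, while Late S had 11.1 and 10.3 (difference 0.58 ± 0.0430, SE). Segments with differences near 0 were mixtures and not evenly labelled stretches. The segment from 10000001 to 11000000 was not called (-0.08 ± 0.0661, SE; adjusted p 0.219, limma), yet 48.1% of its windows were called higher in Late S and 43.3% higher in Early S. The segment from 12000001 to 13000000 was not called either (0.05 ± 0.0435, SE; adjusted p 0.243, limma), and centring on the medians put it at 0.12 with an adjusted p of 0.00818 (limma).

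The calls of the 3 weakest segments depended on single libraries or on the scaling. The segment from 14000001 lost its call without Late S replicate 1, at -0.07 (adjusted p 0.0952, limma), and after centring, at -0.05. The segment from 19000001 was at 0.08 without Early S replicate 1, 0.10 without Early S replicate 2, 0.08 without Late S replicate 1, and 0.09 without either Mid S library, with adjusted p of 0.0617 to 0.144 (limma). The segment from 21000001, at -0.09, lost its call without either Early S library (adjusted p 0.0773 and 0.102, limma) and after centring. When the median of its windows was taken in place of the mean, it turned to 0.13. Quantile normalization also ended these 3 calls and that of the segment from 15000001, which was then at -0.18 (adjusted p 0.0552, limma).

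**Figure D2:**
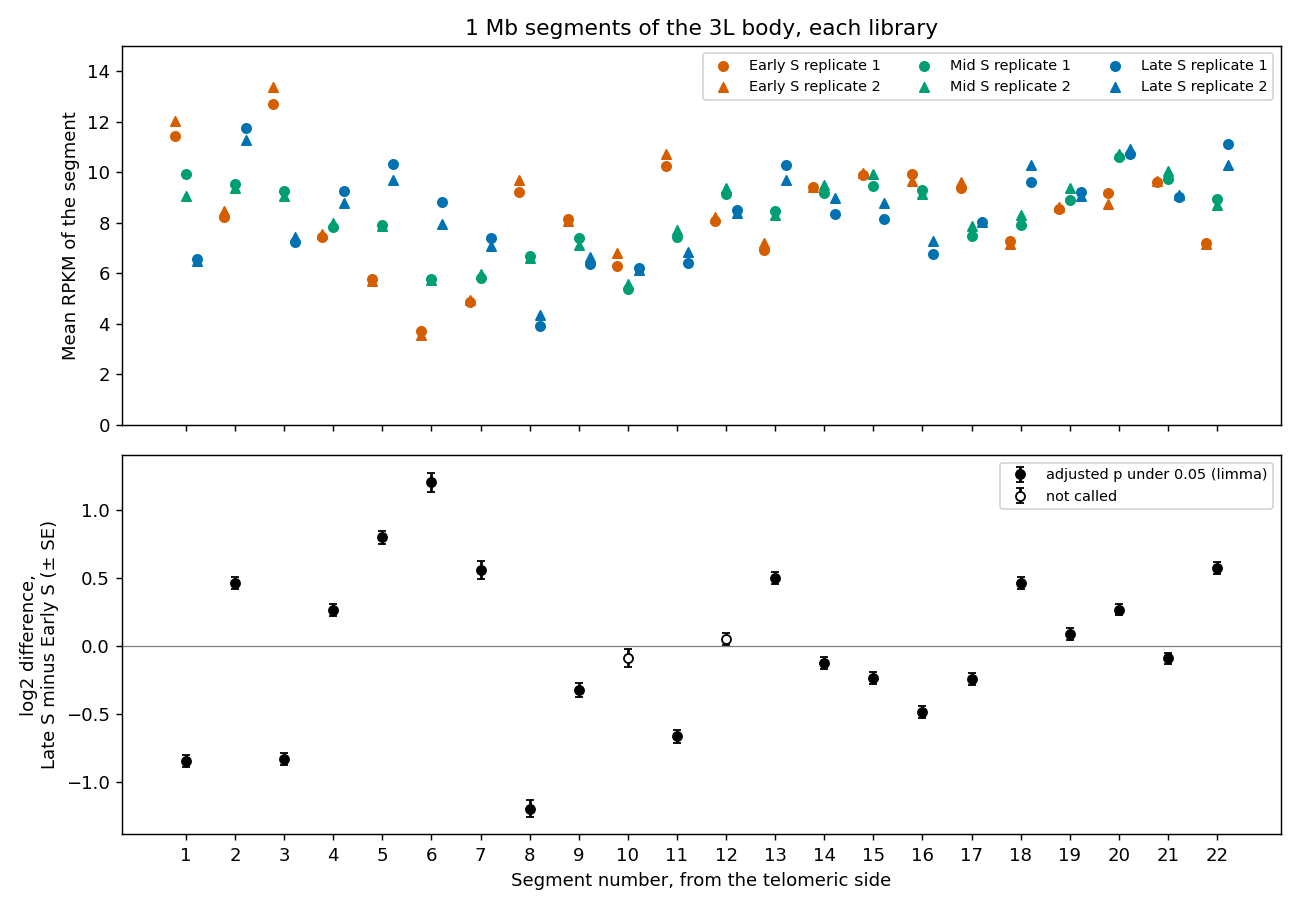
The 22 segments of 1 Mb of the 3L body, numbered from the telomeric side, with the mean RPKM of the segment in each library (upper panel, circles replicate 1, triangles replicate 2) and the log2 difference of Late S minus Early S with its SE (lower panel, open circles not called). The difference runs from -1.20 in segment 8 to 1.21 in segment 6.

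The timing of 3L was then described by blocks. A block joins windows called in 1 direction and at least 1 in size on the log2 scale over gaps of at most 2 other windows, and spans at least 5 windows with the gaps counted (at least 3 of them called). Since blocks are built from the calls, their differences are no separate evidence. The body held 63 late blocks covering 8.08 Mb (36.7% of it) and 55 early blocks covering 7.20 Mb (32.7%). The other 6.72 Mb lay in no block. Late blocks had a median length of 100 kb and ran from 20 to 465 kb. Early blocks had a median length of 110.0 kb and ran from 22.5 to 445 kb.

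A few long blocks made up much of this cover. The 11 late blocks of at least 200 kb held 40.9% of the late cover, and the 12 early blocks of that length held 49.3% of the early cover. Long blocks also had the larger differences. Neighbouring windows share reads and a block ends where the difference falls under 1 in size. This link therefore follows in part from the block rule and is no separate evidence. Late blocks of at least 200 kb had mean differences of 1.75 to 2.75, against 1.01 to 1.42 in the 13 late blocks under 50 kb. Among early blocks these sizes were 1.61 to 2.64 in the long ones and 1.03 to 1.49 in the 17 under 50 kb.

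**Figure D3:**
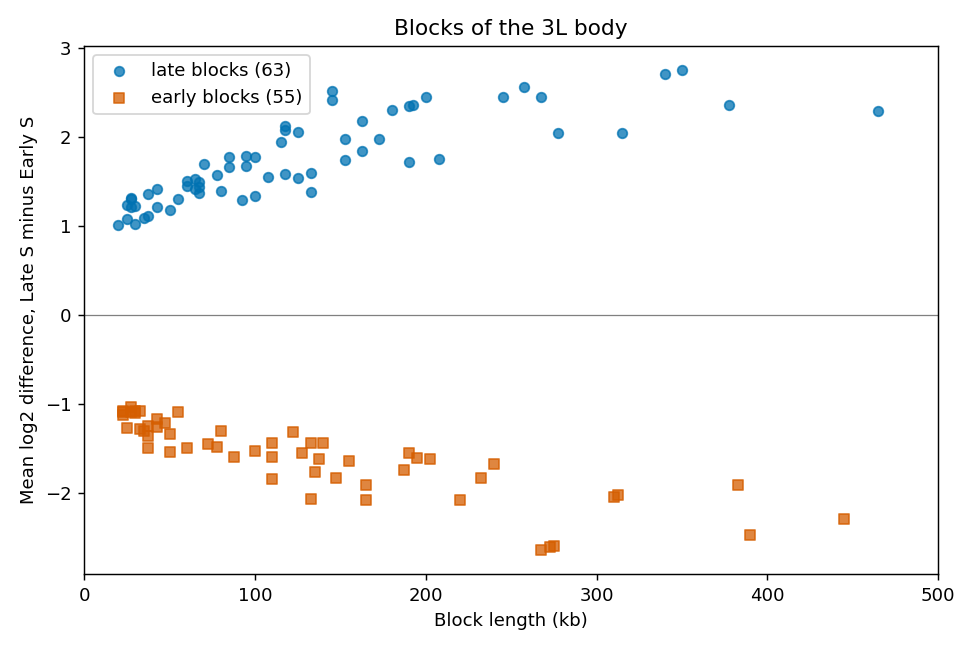
Each point is a block of the 3L body, with its length in kb on the x axis and its mean log2 difference of Late S minus Early S on the y axis (late blocks as circles, early blocks as squares). Blocks longer than 200 kb lie farther from 0 than blocks shorter than 50 kb on both sides, which follows in part from the block rule.

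The longest late block lay at 18122501 to 18587500, over 465 kb. It held 3.22 and 2.71 RPKM for the Early S libraries and 6.38 and 6.86 for Mid S, while Late S had 13.5 and 14.0, and it is the only late block among the 12 that were longest or strongest in which the second Late S library was above the first. The block at 17057501 to 17407500 (350 kb) had the largest mean difference of the late blocks, 2.75, with 2.25 and 2.10 RPKM for Early S and 5.39 and 5.90 for Mid S, while Late S had 14.7 and 13.0. The block at 9900001 to 10240000 (340 kb) followed with 2.71, and held 1.84 and 1.72 RPKM for Early S and 4.73 and 5.18 for Mid S, while Late S had 11.5 and 10.5. In each of these blocks Early S label was far above the 3-read limit and Mid S lay between Early S and Late S.

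Several of the longest and strongest late blocks lay between 4717501 and 7670000. The block at 4717501 to 5095000 (377.5 kb) held 2.70 and 2.52 RPKM for Early S and 5.88 and 6.03 for Mid S, while Late S had 13.3 and 11.6. The block at 6607501 to 6922500 (315 kb) held 2.27 and 2.17 RPKM for Early S and 4.76 and 4.49 for Mid S, while Late S had 9.35 and 8.28. Between these, the blocks at 5380001 to 5580000 and at 6262501 to 6407500 had mean differences of 2.44 and 2.52, and the block at 7425001 to 7670000 had 2.45. The level of Late S label differed between late blocks of like difference. The block at 13537501 to 13805000 held 15.1 and 12.9 RPKM in Late S, and the one at 22422501 to 22680000 held 14.5 and 12.3, beside 10.5 and 9.42 in the block at 7425001 to 7670000.

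The longest early block lay at 8437501 to 8882500, over 445 kb. It held 11.1 and 12.4 RPKM for the Early S libraries and 5.34 and 5.37 for Mid S, while Late S had 2.08 and 2.65. The strongest early block, at 3292501 to 3560000 (267.5 kb), had a mean difference of -2.64, with 20.8 and 23.3 RPKM for Early S and 8.13 and 8.09 for Mid S, while Late S had 3.47 and 4.12. The block at 17827501 to 18100000 (272.5 kb, -2.60) held 15.6 and 16.9 RPKM for Early S and 6.39 and 7.08 for Mid S, while Late S had 2.34 and 3.31. In all 3, Early S exceeded Mid S in every library, and Mid S exceeded Late S.

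Long early blocks recurred from 8437501 to 11427500, a stretch that held 8 early and 4 late blocks. The block at 9327501 to 9640000 (312.5 kb) held 12.0 and 12.5 RPKM for Early S and 7.19 and 6.94 for Mid S, while Late S had 2.69 and 3.59. The block at 10615001 to 10890000 (275 kb, -2.59) held 11.3 and 13.2 RPKM for Early S and 4.61 and 4.89 for Mid S, while Late S had 1.77 and 2.37. The block at 11037501 to 11427500 (390 kb, -2.47) held 15.1 and 16.8 RPKM for Early S and 6.39 and 6.66 for Mid S, while Late S had 2.63 and 3.44. The longest of the 4 late blocks there was the one at 9900001 to 10240000. Each of the 4 late blocks had an early block on both sides, while some early blocks followed one another. Towards the centromere the longest early block lay at 21180001 to 21562500 (382.5 kb, -1.90), with 15.6 and 15.7 RPKM for Early S and 9.75 and 9.93 for Mid S, while Late S had 3.73 and 4.92.

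Of the 117 pairs of neighbouring blocks, 58 joined a late to an early block and the rest joined blocks of 1 kind. Some blocks of 1 kind abut, with a gap of 0 kb, since more than 2 windows outside the rule, or at 0, part a block. Block counts and lengths therefore depend on the joining rule. The median gap between neighbours of opposite kind was 36.25 kb. The median distance between the centres of successive blocks was 242 kb for late and 316 kb for early blocks. The replicates differed by block kind. In late blocks Late S replicate 2 was above replicate 1 in 4 of 63, with medians over blocks of 12.4 RPKM in replicate 1 and 11.4 in replicate 2. In early blocks Late S replicate 2 was above replicate 1 in 52 of 55, with medians of 4.32 in replicate 1 and 5.18 in replicate 2. Late S replicate 2 thus had less contrast between block kinds than replicate 1, and the part of this in the differences was not tested. For Early S, replicate 2 was above replicate 1 in 13 of 63 late blocks and in 43 of 55 early blocks, a wider contrast in replicate 2. Mid S replicate 2 was above replicate 1 in 35 of 63 late and 28 of 55 early blocks.

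Mid S was compared with both other fractions to see whether 3L has stretches copied mainly in the middle of S phase. Against Early S, 47.0% of windows were called higher in Mid S and 24.7% higher in Early S (limma), with a background over all windows of 43.5% and 20.5%. Late S against Mid S gave 27.5% higher in Late S and 41.8% higher in Mid S, with a background of 26.9% and 38.7%. These splits depended on the scaling and on single libraries. With libraries centred on their medians 50.3% of the calls between Mid S and Early S were higher in Mid S, against 65.5% as first fitted, and quantile normalization left 28.01% of windows higher in Mid S. The share higher in Early S than in Mid S was 15.02% without Early S replicate 2, 15.7% without Mid S replicate 1 and 15.4% without Mid S replicate 2. The share higher in Late S than in Mid S was 17.9% without Mid S replicate 1.

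By fraction means, label changed in a single direction through S phase along most of 3L. Early S exceeded Mid S and Mid S exceeded Late S, by means, in 37.9% of windows, and the reverse order held in 41.5%. The mean was highest in Mid S in 19.2% of windows and lowest in Mid S in 1.44%. These orders rest on the RPKM values as given, with no test, and were not counted over all windows. Over all tested windows the mean was highest in Early S in 34.9% and in Late S in 43.2%, against 38.6% and 42.1% on the body. The calls against Mid S given above depended on the scaling. In late blocks the Mid S mean had a median ratio of 0.683 to the Late S mean and of 2.20 to the Early S mean. In early blocks the median ratios were 0.641 to Early S and 1.92 to Late S. By means, Mid S lay between the other fractions in 61 of 63 late and 53 of 55 early blocks. Blocks were chosen for a wide gap between Late S and Early S, so this follows in part from the block rule.

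The 4 exceptions were short blocks, named after their values were seen. The late blocks at 10912501 to 10950000 and 14472501 to 14492500 had Mid S means of 6.66 and 9.46 RPKM beside Late S means of 6.64 and 9.25. The early blocks at 19660001 to 19682500 and 22710001 to 22740000 had Mid S means of 10.0 and 13.3 RPKM beside Early S means of 10.0 and 13.2. In each of the 4 the libraries of Mid S and of the other high fraction overlapped, except in the late block at 14472501, where both Mid S libraries (9.50 and 9.42) lay above both of Late S (9.41 and 9.09).

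Windows highest in Mid S lay mostly outside the blocks. Blocks need a difference of at least 1 in size between Late S and Early S, so this follows in large part from the block rule and is no separate evidence. Of the 1683 windows with the highest mean in Mid S, 88.8% were centred in no block, where 30.3% of all windows of the body were. Their Late S minus Early S difference had a median size of 0.38 on the log2 scale, against 1.63 in the other windows, and their Mid S mean was a median of 1.14 times that of the next fraction. Over all tested windows the mean was highest in Mid S in 21.9%. Both Mid S libraries lay above the 4 other libraries in 894 windows, 10.2% of the body beside a background of 11.7%. Called above both Early S and Late S (limma) were 191 windows, 2.18% of the body beside a background of 2.43%. Their medians were 8.17 and 7.61 RPKM for Early S and 11.8 and 11.5 for Mid S, while Late S had 7.92 and 8.16. This share was 0.0799% when each library was centred on its median, a step that lowers Mid S most, and 5.66% after quantile normalization. It was 1.08% without Early S replicate 1, 0.776% without Early S replicate 2, 0.411% without Mid S replicate 1 and 0.399% without Mid S replicate 2.

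These called windows formed 60 short runs, of which 16 spanned at least 5 windows with gaps counted, and the longest covered 45.0 kb. That run, at 20245001 to 20290000, held 7.39 and 7.65 RPKM for Early S and 12.0 and 12.4 for Mid S, while Late S had 8.95 and 9.28. The run at 16395001 to 16437500 held 8.61 and 8.13 RPKM for Early S and 12.6 and 10.6 for Mid S, while Late S had 8.60 and 7.99, and a second one lay close by at 16520001 to 16547500. The segment around these, 16000001 to 17000000, had the highest share of windows with the highest mean in Mid S, 37.3%. The run at 15635001 to 15672500 held 8.99 and 9.01 RPKM for Early S and 11.7 and 12.9 for Mid S, while Late S had 8.07 and 9.74. At 10897501 to 10917500 a run followed the early block that ends at 10890000 and overlapped the start of the late block at 10912501, with 3.75 and 3.73 RPKM for Early S and 6.003 and 7.580 for Mid S, while Late S had 4.072 and 4.797.

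Transitions between early and late stretches were then located. At each point the mean Late S minus Early S difference of the next 50 kb was set against that of the 50 kb before. The points of largest change were kept, at least 200 kb apart within each direction. Points of opposite direction could lie closer and share windows. With windows in order from telomere to centromere, 18 points on 3L had a step towards Late S of at least 2 on the log2 scale, and 19 had one of that size towards Early S. The mean difference changed sign across 17 points in each direction, and at the others both sides lay on the same side of 0. The steepest, at 9320001, was a late-to-early step of -3.13, and -3.53 and -2.73 with replicates 1 and 2 alone. Early S averaged 10.1 and 9.69 RPKM in the 50 kb after it, against 2.86 and 2.65 in the 50 kb before it. Late S averaged 2.91 and 4.81 RPKM after it, against 8.21 and 8.19 before it. Mid S changed less across the point, with 7.502 and 7.842 RPKM after it, against 5.71 and 5.24 before it.

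The next steepest late-to-early step was at 15460001 (-2.96), where Early S averaged 13.8 and 12.7 RPKM after the point, against 4.57 and 3.94 before it. There Mid S was lower after the point, with 8.19 and 9.43 RPKM, than before it, with 9.69 and 9.61. The steepest early-to-late steps lay at 9900001 (2.72), 10410001 (2.68) and 20560001 (2.63). At 20560001 Early S averaged 5.21 and 3.99 RPKM after the point, against 15.9 and 15.8 before it. Late S averaged 13.3 and 12.1 RPKM after it, against 6.23 and 7.17 before it. The point at 18100001 directly follows an early block, and the longest late block starts beyond it, at 18122501. The step at 18100001 was 2.45, and 1.05, 1.59 and 3.44 with flanks of 20, 30 and 100 kb. Step sizes depended on the flank. The 8 steepest points in each direction had sizes of 2.32 to 3.13, against 1.05 to 1.95 with flanks of 20 kb, where 13 of the 16 were smaller by over 1.5 times, and 1.57 to 2.31 with flanks of 30 kb, where 3 were. Of these 16 points, 5 lay between 9320001 and 10900001, and the mean difference changed sign across all 16.

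Averaged over these 16 points with the early side turned to the left, the change from early to late took a few windows. At 45 kb on the early side Early S averaged 14.4 RPKM, Mid S 8.28 and Late S 4.56. At 15 kb on the early side they were 9.23, 8.78 and 5.71 RPKM in that order, and at 15 kb on the late side 4.55, 8.99 and 10.6. At 45 kb on the late side they were 2.77, 7.05 and 11.7 RPKM. Mid S was highest, at 9.47 RPKM, 5 kb from the turn on the early side. The 16 points were chosen for their step in Late S and Early S.

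**Figure D4:**
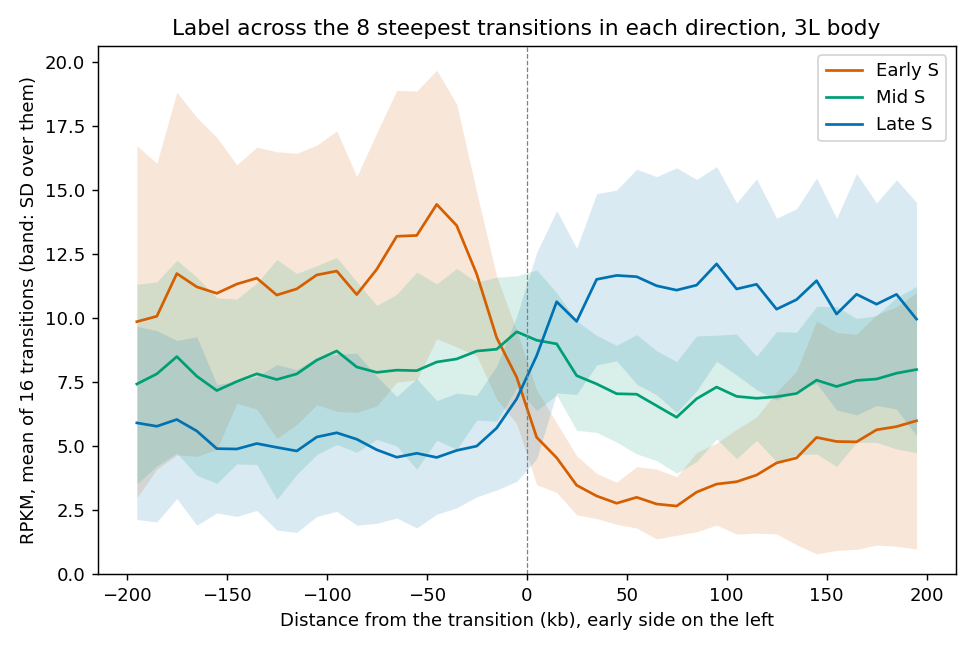
RPKM of Early S, Mid S and Late S (mean of 2 libraries) in 10 kb windows around 16 transitions of the 3L body, the 8 steepest in each direction, averaged over the transitions with the early side on the left. Bands are the SD over the 16 transitions. Early S is lower and Late S higher on the right of the turn than on its left, and Mid S stays between 6.13 and 9.47 RPKM.

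The bodies of 2L, 3R and X were cut by coordinate, without the first 1 Mb and the last 1.5 Mb of each arm. Which of these ends lies next to the centromere was not considered, so the parts left out may differ from those of 3L. The body of 2R was not compared. Beside the bodies of 2L, 3R and X, 3L had the longest early blocks by their median. The median length of early blocks was 110.0 kb on 3L, 65.0 kb on 2L, 77.5 kb on 3R and 81.25 kb on X, and 12 early blocks on 3L reached 200 kb, against 4, 7 and 10. Early blocks covered 32.7% of 3L, 27.2% of 2L, 25.1% of 3R and 34.2% of X. Late blocks covered 36.7% of 3L, 42.0% of 2L, 36.3% of 3R and 32.7% of X, with median lengths of 100, 105, 108.75 and 73.75 kb. Windows called higher in Late S made up 45.3% of 3L, 49.0% of 2L, 47.3% of 3R and 40.1% of X, and those higher in Early S 41.2%, 36.7%, 36.2% and 44.8%. Arms are not samples, so these values are set side by side with no test and nothing is called particular to 3L.

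The likeness of windows by distance was near that of 2L up to 100 kb and differed in its course beyond. Pearson's r of the Late S minus Early S difference between windows that do not overlap was 0.975 on 3L at 10 kb, 0.825 at 40 kb, 0.583 at 80 kb and 0.483 at 100 kb. On 2L these values were 0.974, 0.824, 0.567 and 0.471, and at 100 kb r was 0.294 on 3R and 0.353 on X. At 240 kb it was 0.0229 on 3L, 0.277 on 2L, 0.0843 on 3R and 0.0978 on X. At 320 kb it was -0.0657 on 3L, 0.162 on 2L, 0.108 on 3R and 0.0656 on X. The order differed at 1000 kb, with 0.130 on 3L, 0.00209 on 2L, 0.00430 on 3R and 0.0140 on X. These are correlations across windows of the same 4 libraries, over 2086 to 2189 pairs on 3L at these distances, and are given as a description.

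**Figure D5:**
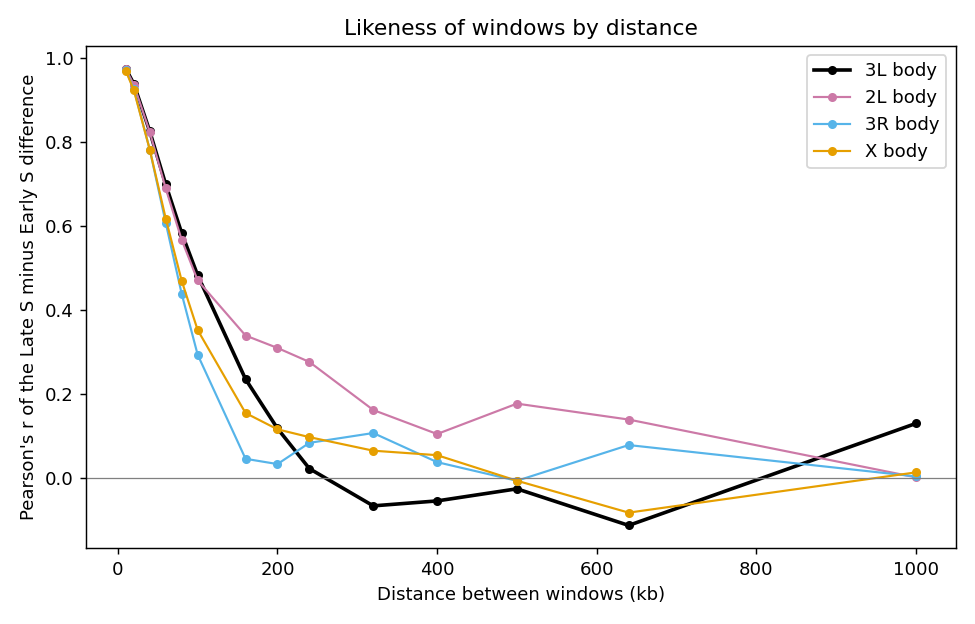
Pearson's r of the log2 difference of Late S minus Early S between 10 kb windows at a given distance in kb, for the bodies of 3L, 2L, 3R and X. On 3L r is 0.483 at 100 kb and below 0 at 320 kb.

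A few windows of 3L held almost no label in any fraction. Within the body, 7 stretches were at 0 in all libraries. The longest ran from 19702501 to 19750000, with 16 windows, and was followed by another from 19752501 to 19767500. The window at 7670001 to 7680000 had 2 reads or fewer in each library, under the 3-read limit, and the window at 22800001 to 22810000 had 3 or fewer. No timing can be read from such windows. Even so, the one at 22800001 lies within an early block whose largest adjusted p was 0.0217 (limma), so it counts among the calls higher in Early S. At the other end, the window with the highest mean over all libraries, 2550001 to 2560000, held 31.4 and 32.7 RPKM for Early S and 13.8 and 16 for Mid S, while Late S had 6.73 and 9.25, and the 4 next in order were likewise highest in Early S.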

How the data were processed

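Replication timing libraries of Kc cells, 2 each of Early S, Mid S and Late S, were read as 1 table per library, per the labels of each sample. Each of its 55900 windows on 14 sequences carries 1 value in RPKM made by the authors, per the file headers. No aligner, genome build, read filter or input correction is given in the sources used here, so repeated sequence may have lost reads. The combined tables of both replicates were not used here.

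Dividing the values of full windows by the smallest step of their library gave whole reads, within 0.02, for 100% of them, and so the read totals. The 2466 windows without a read in any library were not tested. The fit used log2(RPKM + 0.0341), the pseudocount being the lowest value above 0, which understates differences where reads are few. The model was fitted with limma 3.58.1 in R 4.3.3 (lmFit, eBayes with trend), with the 3 fractions as groups over all 6 libraries, 3 residual and 10.7 prior degrees of freedom, two-sided, and p-values were adjusted by Benjamini-Hochberg over all 53434 windows, since the authors deposited no p-values. The fit was tested on simulated data. Segments of 1 Mb needed at least 50 windows that do not overlap. Regions named are all segments, the 8 longest and 8 strongest blocks in each direction, the 8 steepest transitions in each direction, runs called highest in Mid S that span at least 5 windows with gaps counted, stretches at 0, and the 5 lowest and 5 highest windows by mean. Alternatives were other pseudocounts, a filter, other scalings, left-out libraries, other block and segment rules and other flanks. The members, lists and rules were chosen with earlier results of these data known. Tables and plots were made in Python 3.11.15 with pandas 2.3.3, NumPy 2.4.6 and matplotlib 3.10.9.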

Additional observations from a re-analysis of the deposited data

How the results depend on the processing

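Shares of windows called higher in Late S or in Early S, and the cover of blocks, stayed within 1.5 times their values under every pseudocount, filter and scaling tried and without any 1 library. With blocks limited to differences of 2 or more on the log2 scale there were 39 late blocks covering 3.90 Mb and 24 early blocks covering 2.49 Mb, fewer by construction. The share called highest in Mid S ran from 0.399% to 2.499% when 1 library was left out, was 0.0799% with libraries centred and 5.66% after quantile normalization. The share higher in Mid S than in Early S was 28.01% after quantile normalization. The share higher in Early S than in Mid S ran from 15.02% to 26.8% and that higher in Late S than in Mid S from 17.9% to 26.5% when 1 library was dropped, where a fraction left with a single library is assumed to vary like the others. The segment from 21000001 to 22000000 turned to 0.13 with the median of its windows. The cause of these changes was not tested, other than where libraries or windows are fewer by construction.

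Replicate numbers are shared between fractions, but nothing in the labels says that they mark a shared culture or day. Replicate differences of 2 fractions correlated across windows at 0.112 for Late S and Early S, 0.252 for Late S and Mid S, and 0.0774 for Mid S and Early S. With the replicate block 45.7% of windows were called higher in Late S and 41.5% higher in Early S, 2.57% were called highest in Mid S, and 10 segments were called in each direction. Flanks of 25 kb were not run, since they are not a whole number of windows. Flanks of 20 and 30 kb, chosen after seeing the data, and of 100 kb kept the direction of all 16 steps, but 13 of them shrank by over 1.5 times at 20 kb and 3 at 30 kb, and none moved that far at 100 kb. The depth limits windows of about 3 reads or fewer, from which no timing can be read even where a call was made.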
